A study of Mus musculus with 14 samples.

Results

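PU.1 and 9 other transcription factors of the ETS family were followed in activated mouse B cells. The 10 genes are Sfpi1 (the table's older symbol for the PU.1 gene, Spi1), Spib, Ets1, Fli1, Erg, Etv6, Elf1, Elf4, Elk3 and Elk4, each found by its symbol among 22232 distinct genes. ETS proteins share a DNA-binding domain that reads a GGAA core, and they differ in the sequence they prefer around it, in their partners and in whether they activate or repress. PU.1 drives macrophage and granulocyte development at a high level and B cell development at a lower one, and Spi-B, its closest relative in B cells, binds many of the same sites. In B cells PU.1 and Spi-B recruit Irf4 or Irf8 to paired ETS and IRF sites, while Ets1 is known for holding back differentiation into plasma cells.

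The study compared 3 genotypes, named here by the prefix of the library titles. WT is the wild type, with 4 libraries. PU1_KI has 5 libraries and is the genotype written PU.1[155-/155-], in which the site for the microRNA miR-155 in the 3' UTR of the PU.1 gene is mutated. The 5 miR155_KO libraries come from miR-155[-/-] mice, which lack the microRNA. All groups shared the same handling: splenic B cells were enriched by removing other cells, then cultured ex vivo for 4 days with LPS (5 µg/ml) plus IL-4 (10 ng/ml), and polyadenylated RNA was sequenced. The sources used here give neither the animals' age nor their strain, nor which libraries shared a sequencing run, so run and genotype cannot be told apart. The design text calls the replicates biological but does not tie libraries to animals, cultures or days, so the p-values measure the spread between these libraries.

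Levels are RPKM, reads scaled to gene length and to library depth, as the authors deposited them, so genes can be compared per length. Between 31.5 and 52.4 M reads (M for 1000000) per library were recovered from the steps in the RPKM values. B cell markers were high (8 of 8 tested, Cd79b highest at a mean of 449 RPKM), while 0 of 8 neutrophil, 0 of 9 macrophage and 0 of 7 megakaryocyte markers found in the table reached the filter described next. Lck, at a mean of 6.38 RPKM, was the 1 of 8 T cell markers to reach it, and of the NK cell markers none did (Prf1 highest, 0.314). Dendritic cell markers summed to 26.1 to 33.3 RPKM in WT libraries, 40.2 to 48.9 in PU1_KI and 31.2 to 39.5 in miR155_KO. Most of this was Flt3 (means of 15.8, 26.0 and 22.9) and Batf3 (12.4, 15.1 and 8.72), with Zbtb46 at 2.34, 2.67 and 4.62. Against WT, Batf3 was thus lower in miR155_KO, while Flt3 and Zbtb46 were higher. The other 4 of those 7 markers were under 0.1 RPKM everywhere, and the part of such cells in the values below was not tested. The first principal component of all tested genes held 66.1% of the variance, and along it WT_1 and miR155_KO_5 stood apart from their groups. WT_1 had the lowest WT value for 57.4% of tested genes and for 6 of the 10 ETS genes, and PU1_KI_1 the lowest PU1_KI value for 58.6% and for 8 of the 10.

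A change is a log2 fold change on log2(RPKM + 0.5) with its standard error, from limma fitted across the 9627 genes that reached 1 RPKM in 4 or more libraries. A gene is called higher or lower at a Benjamini-Hochberg adjusted p under 0.05 over all those genes. Both mutants were compared with the same 4 WT libraries, so their changes share those controls and are given side by side. RNA of a whole culture was measured, so fewer cells of a type and less RNA per cell cannot be told apart.

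The sequences that link these genotypes to the ETS genes are the mature microRNA and the matches to its seed in the 3' UTRs. The seed, bases 2 to 8 of mmu-miR-155-5p (RefSeq, GRCm38.p6, chr16:84714143-84714165, plus strand), is in capitals:

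mmu-miR-155-5p: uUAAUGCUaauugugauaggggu

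A full match is AGCATTAA, the reverse complement of the seed followed by an A. In the longest 3' UTRs of GENCODE M21 (GRCm38), Sfpi1 and Ets1 were the 2 of the 10 genes with a full match or with either 7-base match, AGCATTA or GCATTAA. The matches are in capitals within the reference sequence, which is not the mutated allele of PU1_KI:

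Sfpi1: ccgccggccatAGCATTAAcccgtcgcccg

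Ets1: ctgggttttaaAGCATTAAccttcatggtg

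The Sfpi1 match lies at chr2:91115437-91115444 on the plus strand and begins at base 43 of a 362-base 3' UTR. In Ets1 it lies at chr9:32757208-32757215, also on the plus strand, and begins at base 2783 of 3395. Of 9392 tested genes with an annotated 3' UTR, 3.33% held the full match and 13.6% any of the 3. The other 8 ETS genes had 3' UTRs of 1572 to 3684 bases, longer than the median of 1154.5 over tested genes, and held none. A match is a description of the reference sequence and not a measured binding site.

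Sfpi1 (chromosome 2, 90922547 to 90955913, plus strand, in the table's build NCBIM37) had the highest levels in PU1_KI. Its RPKM was 9.73, 12.5, 13.2 and 12.6 in the WT libraries. The PU1_KI libraries had 21.1, 22.5, 25.6, 26.0 and 23.3, and those of miR155_KO 16.7, 17.1, 15.5, 15.8 and 18.3. The 3 genotypes did not overlap, with miR155_KO between the others. The PU1_KI mean was 1.97 times and the miR155_KO mean 1.39 times that of WT. The log2 fold change was 0.96 ± 0.08 (SE) in PU1_KI (adjusted p = 5.85e-08) and 0.47 in miR155_KO (adjusted p = 6.14e-05), and miR155_KO was lower than PU1_KI by 0.49 (adjusted p = 1.91e-05). Between 944 and 2693 reads lay behind each value.

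Spib (chromosome 7, 51781365 to 51787441, minus strand) encodes the ETS factor most like PU.1 here and was the most abundant of the 10 in every genotype. WT libraries had 61.1, 72.7, 78.6 and 70.2 RPKM, PU1_KI libraries 64.1, 67.6, 75.8, 77.3 and 68.1, and miR155_KO libraries 81.9, 83.2, 81.4, 76.1 and 80.2. WT and PU1_KI covered the same range, and the lowest miR155_KO library lay within it. The change was 0.00 ± 0.07 in PU1_KI (adjusted p = 0.998), and with median-of-ratios scaling, which sets the typical gene equal between libraries, it was -0.09. Spib was called higher in miR155_KO by 0.19 against WT (adjusted p = 0.0234) and by 0.19 against PU1_KI (adjusted p = 0.0168). The call against WT was lost without WT_1 (0.13, adjusted p = 0.11).

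The balance of these 2 relatives separated the genotypes. Spib was 5.56 to 6.28 times as abundant as Sfpi1 in WT, 2.92 to 3.03 times in PU1_KI and 4.39 to 5.25 times in miR155_KO. The ranges of this within-library ratio did not overlap, and that of PU1_KI was the narrowest. Sfpi1 and Spib together came to 82.6 ± 8.71 RPKM (SD, n = 4) in WT, 94.3 ± 7.73 (n = 5) in PU1_KI and 97.2 ± 3.23 (n = 5) in miR155_KO. Sfpi1 made up 14.5%, 25.1% and 17.1% of that sum on average.

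**Figure D1:**
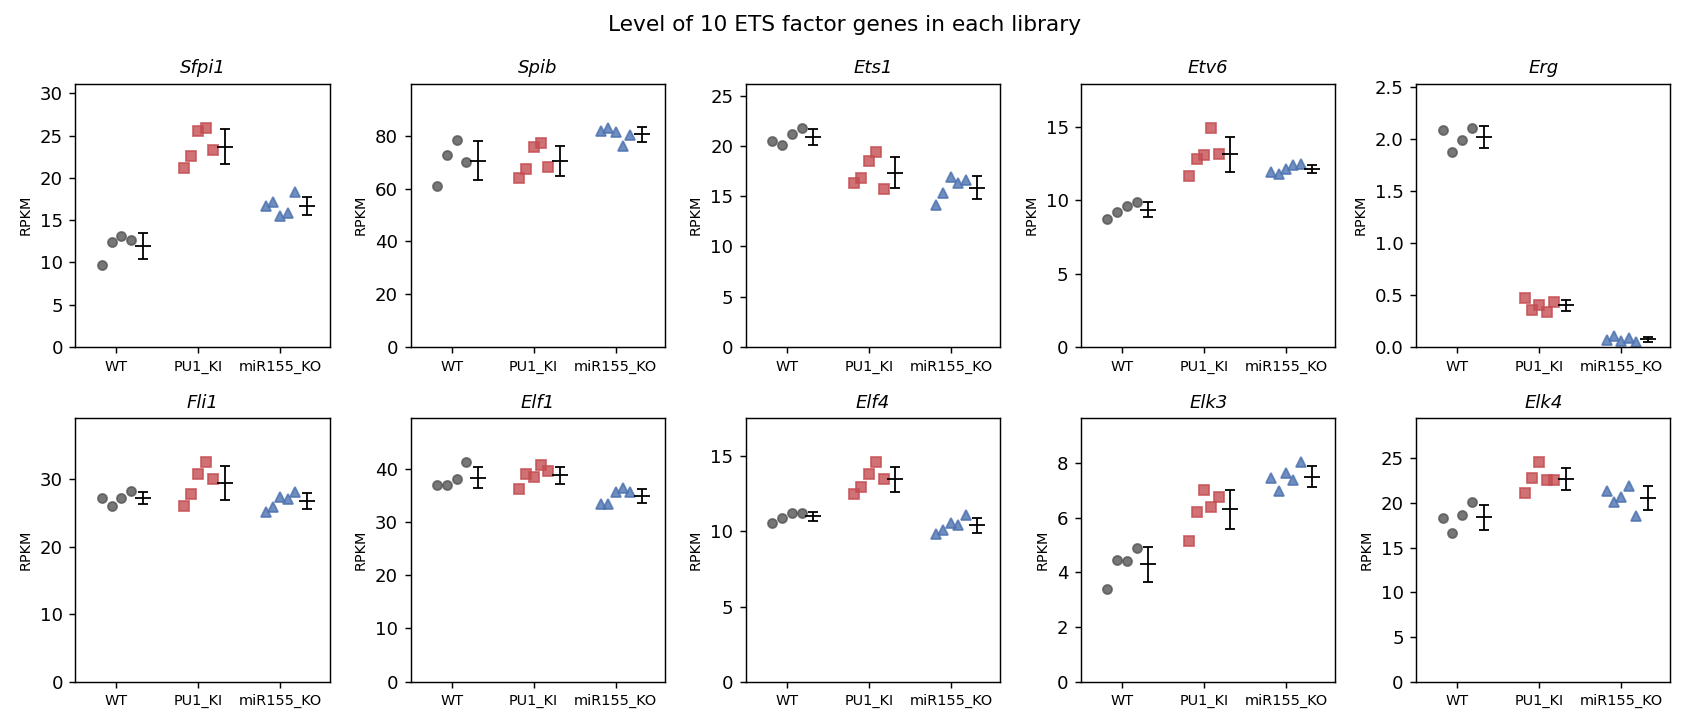
RPKM of each of the 10 ETS genes, 1 panel per gene on a linear axis from 0; points are libraries of WT (4), PU1_KI (5) and miR155_KO (5), with the group mean and SD. Sfpi1 separates into 3 levels with PU1_KI highest (21.1 to 26.0), and Erg drops from about 2 RPKM in WT (1.88 to 2.11) to under 0.5 in both mutants.

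Ets1 and Fli1 lie next to each other on chromosome 9 and are both activating ETS factors of lymphocytes. In the table Fli1 spans 32229793 to 32348974 on the minus strand and Ets1 32443806 to 32565405 on the plus strand, 94.8 kb apart with 0 genes listed between them. Ets1 was at 20.5, 20.1, 21.2 and 21.8 RPKM in WT libraries, at 16.3, 16.8, 18.5, 19.4 and 15.7 in PU1_KI and at 14.1, 15.3, 16.9, 16.3 and 16.6 in miR155_KO. Every library of both mutants was below every WT library, while the mutants overlapped each other. Ets1 fell by 0.27 ± 0.07 in PU1_KI (adjusted p = 0.00582) and by 0.39 in miR155_KO (adjusted p = 4.94e-05). The difference between the mutants was -0.13 (adjusted p = 0.0871), and it passed without PU1_KI_5 (-0.16, adjusted p = 0.042). Sfpi1, the other of the 10 genes with a seed match, was higher in both mutants. In PU1_KI the mutated site is that of the PU.1 gene, and whether either match bears on these changes was not tested.

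Fli1 RPKM was 27.2, 26.1, 27.3 and 28.3 in WT, 26.0, 27.8, 30.7, 32.5 and 30.04 in PU1_KI and 25.1, 25.9, 27.4, 27.0 and 28.1 in miR155_KO. The 3 ranges overlapped. The change was 0.11 ± 0.06 in PU1_KI (adjusted p = 0.216) and -0.03 in miR155_KO (adjusted p = 0.72). Between the mutants it was -0.13 (adjusted p = 0.0513), and it passed without PU1_KI_1 (-0.18, adjusted p = 0.00871), PU1_KI_2 (-0.15, adjusted p = 0.0429) or miR155_KO_5 (-0.15, adjusted p = 0.0314). With Ets1 lower and Sfpi1 higher, the ratio of Ets1 to Sfpi1 was 1.61 to 2.11 in WT, 0.676 to 0.773 in PU1_KI and 0.844 to 1.09 in miR155_KO.

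Erg (chromosome 16, 95580776 to 95808200, minus strand), a close relative of Fli1 best known from blood stem cells, megakaryocytes and endothelium, had the largest fold differences of the 10. Its RPKM was 2.08, 1.88, 1.98 and 2.11 in WT, 0.468, 0.356, 0.406, 0.335 and 0.435 in PU1_KI and 0.0657, 0.102, 0.0527, 0.0890 and 0.0492 in miR155_KO. The genotypes formed 3 levels with wide gaps between them. The values rest on 244 to 320 reads per library in WT, 39 to 64 in PU1_KI and 7 to 18 in miR155_KO. Exact 95% Poisson intervals over the libraries reached from 1.66 to 2.37 RPKM in WT libraries, 0.252 to 0.598 in PU1_KI and 0.0198 to 0.161 in miR155_KO, and they cover counting error only.

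As a ratio of mean RPKM, WT was 5.03 times PU1_KI and 28.1 times miR155_KO, and PU1_KI was 5.58 times miR155_KO. On the log2(RPKM + 0.5) scale, which understates changes at such levels, Erg fell by 1.48 ± 0.07 in PU1_KI (adjusted p = 1.15e-11) and by 2.14 in miR155_KO (adjusted p = 4.66e-15), and was 0.65 lower in miR155_KO than in PU1_KI (adjusted p = 6.11e-08). Erg reached 1 RPKM in WT libraries alone, so it passed the filter through the genotype where it is high and had to differ there. The other 9 genes were above 1 RPKM in all 14 libraries. Fli1, at 13.1 to 13.9 times the level of Erg in WT, stood at 55.7 to 97.0 times in PU1_KI and 254 to 571 times in miR155_KO.

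Markers of the other cell types that express Erg were low in all groups apart from Pecam1. The 7 megakaryocyte and platelet markers summed to 0.378 to 0.474 RPKM in WT libraries, 0.377 to 0.561 in PU1_KI and 0.401 to 0.685 in miR155_KO. The 6 stem and progenitor markers summed to 0.0166 to 0.0839, 0.0302 to 0.0843 and 0.132 to 0.237. The 8 endothelial markers summed to 6.79 to 7.68 in WT, 7.02 to 7.97 in PU1_KI and 3.95 to 4.53 in miR155_KO. Most of each sum was Pecam1, which B cells also express, at means of 6.89, 7.10 and 3.38 RPKM. Esam went the other way in miR155_KO, at 0.258 in WT, 0.286 in PU1_KI and 0.679 in miR155_KO. Of the 8 markers, 5 were under 0.1 RPKM in every library. Mean levels of the defining endothelial genes Kdr, Tek and Vwf were at most 0.0555 RPKM in any genotype, and that of Cdh5 was 0.117 in WT, 0.103 in PU1_KI and 0.116 in miR155_KO.

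Genes beside Erg did not share its fold difference. Of 8 tested genes within 1 Mb, a window chosen after these values were seen, 1 was called higher and 1 lower in PU1_KI (-0.17 to 0.21) and 3 higher and 1 lower in miR155_KO (-0.54 to 0.69). Of all tested genes 27.7% were called in PU1_KI and 62.5% in miR155_KO. The neighbour of Erg, Ets2, another ETS gene 115.5 kb away, was at 1.47 ± 0.12 RPKM in WT libraries, 1.42 ± 0.20 in PU1_KI and 2.11 ± 0.19 in miR155_KO (SD). In GRCm38 Erg lies 10.64 Mb from the gene of miR-155 on the same chromosome.

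**Figure D2:**
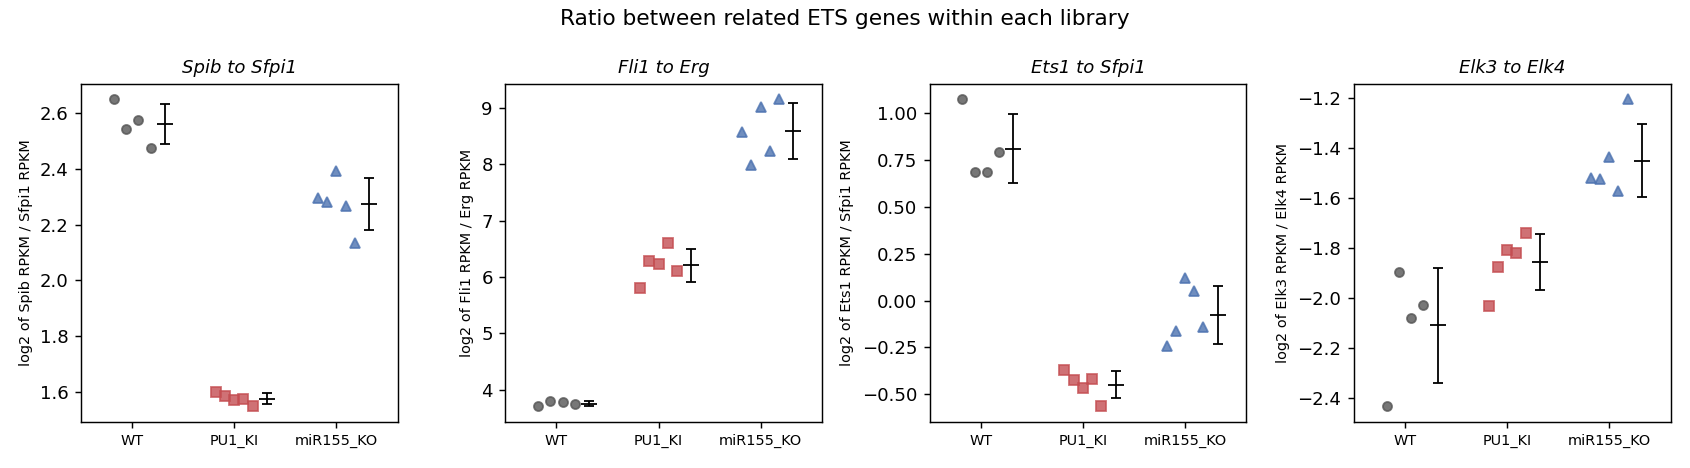
Log2 of the within-library RPKM ratio for 4 pairs of related ETS genes; points are libraries by genotype with mean and SD. Spib to Sfpi1 is lowest in PU1_KI (ratio 2.92 to 3.03), and Fli1 to Erg rises in 3 separate steps from WT (13.1 to 13.9) through PU1_KI to miR155_KO (254 to 571).

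Etv6 (chromosome 6, 133985718 to 134220176, plus strand), an ETS factor that represses transcription, was higher in both mutants. It was at 8.72, 9.23, 9.63 and 9.91 RPKM in WT libraries, 11.7, 12.8, 13.1, 15.0 and 13.2 in PU1_KI and 11.9, 11.8, 12.2, 12.4 and 12.5 in miR155_KO. No mutant library overlapped WT, while the mutants overlapped each other. Etv6 rose by 0.47 ± 0.06 in PU1_KI (adjusted p = 1.28e-05) and by 0.36 in miR155_KO (adjusted p = 5.15e-05). The difference between the mutants was -0.11 (adjusted p = 0.115), and without PU1_KI_1 it passed (-0.15, adjusted p = 0.0251).

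Elf1 (chromosome 14, 79881001 to 79982283, plus strand) and Elf4 (chromosome X, 45764223 to 45816309, minus strand) are activators of 1 subfamily, known in lymphocytes for immune genes and for limits on proliferation. Elf1 was at 37.0, 37.0, 38.1 and 41.2 RPKM in WT libraries, 36.2, 39.0, 38.4, 40.6 and 39.5 in PU1_KI and 33.4, 33.4, 35.7, 36.4 and 35.7 in miR155_KO. All miR155_KO libraries lay below all WT libraries, by a narrow gap, and WT and PU1_KI overlapped. The change in PU1_KI was 0.02 ± 0.05 (adjusted p = 0.853), and with median-of-ratios scaling it was -0.07.

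The lower Elf1 level in miR155_KO (-0.13, adjusted p = 0.0391) was not called without WT_3 (-0.13, adjusted p = 0.073), WT_4 (-0.10, adjusted p = 0.138), miR155_KO_1 (-0.12, adjusted p = 0.0881) or miR155_KO_2 (-0.12, adjusted p = 0.0894), nor with quantile normalization (0.0019). Elf1 was also called lower in miR155_KO than in PU1_KI (-0.15, adjusted p = 0.0157), a difference of -0.01 with median-of-ratios scaling.

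Elf4 separated PU1_KI from the other genotypes. It was at 10.6, 10.9, 11.2 and 11.3 RPKM in WT libraries, 12.5, 12.9, 13.8, 14.6 and 13.5 in PU1_KI and 9.85, 10.1, 10.5, 10.4 and 11.1 in miR155_KO. The PU1_KI libraries were above all others, and WT and miR155_KO overlapped. Elf4 rose by 0.28 ± 0.05 in PU1_KI (adjusted p = 0.000768). In miR155_KO the change against WT was -0.08 (adjusted p = 0.225), and Elf4 was 0.36 lower in miR155_KO than in PU1_KI (adjusted p = 8.39e-06).

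Elk3 (chromosome 10, 92710159 to 92773880, minus strand) and Elk4 (chromosome 1, 133904184 to 133922101, plus strand) encode ternary complex factors, which bind DNA with serum response factor (Srf) and pass growth signals to immediate early genes. Elk3, which also acts as a repressor, was at 3.39, 4.46, 4.41 and 4.91 RPKM in WT libraries, 5.15, 6.22, 7.02, 6.40 and 6.76 in PU1_KI and 7.45, 6.998, 7.65, 7.39 and 8.03 in miR155_KO. Both mutants lay above WT, and miR155_KO overlapped PU1_KI only at the highest PU1_KI library. Elk3 rose by 0.51 ± 0.09 in PU1_KI (adjusted p = 0.000222) and by 0.75 in miR155_KO (adjusted p = 5.21e-07). The 0.24 difference between the mutants (adjusted p = 0.0168) was not called without PU1_KI_1 (0.17, adjusted p = 0.057).

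Elk4 was at 18.3, 16.6, 18.6 and 20.1 RPKM in WT libraries, 21.1, 22.8, 24.6, 22.6 and 22.6 in PU1_KI and 21.4, 20.1, 20.7, 21.9 and 18.5 in miR155_KO. PU1_KI lay above WT, and miR155_KO overlapped both. Elk4 rose by 0.30 ± 0.06 in PU1_KI (adjusted p = 0.00158). Its other calls were near the threshold: 0.15 in miR155_KO against WT (adjusted p = 0.0417) and -0.14 between the mutants (adjusted p = 0.0413). The call against WT was lost without any of WT_1, WT_2, WT_3, miR155_KO_1, miR155_KO_2, miR155_KO_3 or miR155_KO_4 (0.11 to 0.16, adjusted p 0.0539 to 0.177). That between the mutants was lost without any of PU1_KI_2 to PU1_KI_5, miR155_KO_2, miR155_KO_3 or miR155_KO_5 (-0.15 to -0.11, adjusted p 0.0576 to 0.119). The ratio of Elk3 to Elk4 was 0.185 to 0.269 in WT, 0.244 to 0.300 in PU1_KI and 0.337 to 0.434 in miR155_KO, where no library overlapped those of the other genotypes.

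Taken as a set, 5 of the 10 genes were called higher (Sfpi1, Etv6, Elf4, Elk3, Elk4) and 2 lower (Ets1, Erg) in PU1_KI, where 27.7% of all tested genes were called, 23.7% higher and 4.03% lower. In miR155_KO 5 were higher (Sfpi1, Spib, Etv6, Elk3, Elk4) and 3 lower (Ets1, Erg, Elf1), against 62.5% of all tested genes, 27.2% higher and 35.3% lower. Between the mutants 2 were higher in miR155_KO (Spib, Elk3) and 5 lower (Sfpi1, Erg, Elf1, Elf4, Elk4), against 64.3% of all genes, 17.9% higher and 46.4% lower. The filter bound Erg to differ from WT in both mutants, so its 2 calls against WT are no result of these counts. Leaving Erg aside, 6 of the other 9 genes were called in PU1_KI. The 10 genes were chosen with earlier results of these data known, so these counts are a description and not a test. For so few genes the 8 and 7 calls in the miR155_KO comparisons lie near the shares of all genes.

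By libraries that did not overlap, 5 genes were higher and 2 lower in PU1_KI than in WT (22.1% of tested genes in either direction). For miR155_KO against WT the counts were 3 and 3 (48.4%), and against PU1_KI 0 and 3 (43.1%). Erg is among the lower genes in each count, and the filter bound it not to overlap WT in either mutant. The median change of the 10 genes was 0.19 in PU1_KI against 0.08 for all tested genes, 0.06 against -0.05 in miR155_KO, and -0.14 against -0.13 between the mutants.

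Scaling shifted the last of these: with median-of-ratios scaling the median of all genes between the mutants moved from -0.13 to 0.00, and the counts became 2 higher and 3 lower, without Elf1 and Elk4. Over all tested genes, the calls between the mutants were 1725 higher and 4467 lower as deposited and 3033 and 3013 with that scaling. In PU1_KI against WT they were 2279 and 388 as deposited and 1677 and 1518 scaled, while the counts of the 10 genes stayed at 5 and 2.

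**Figure D3:**
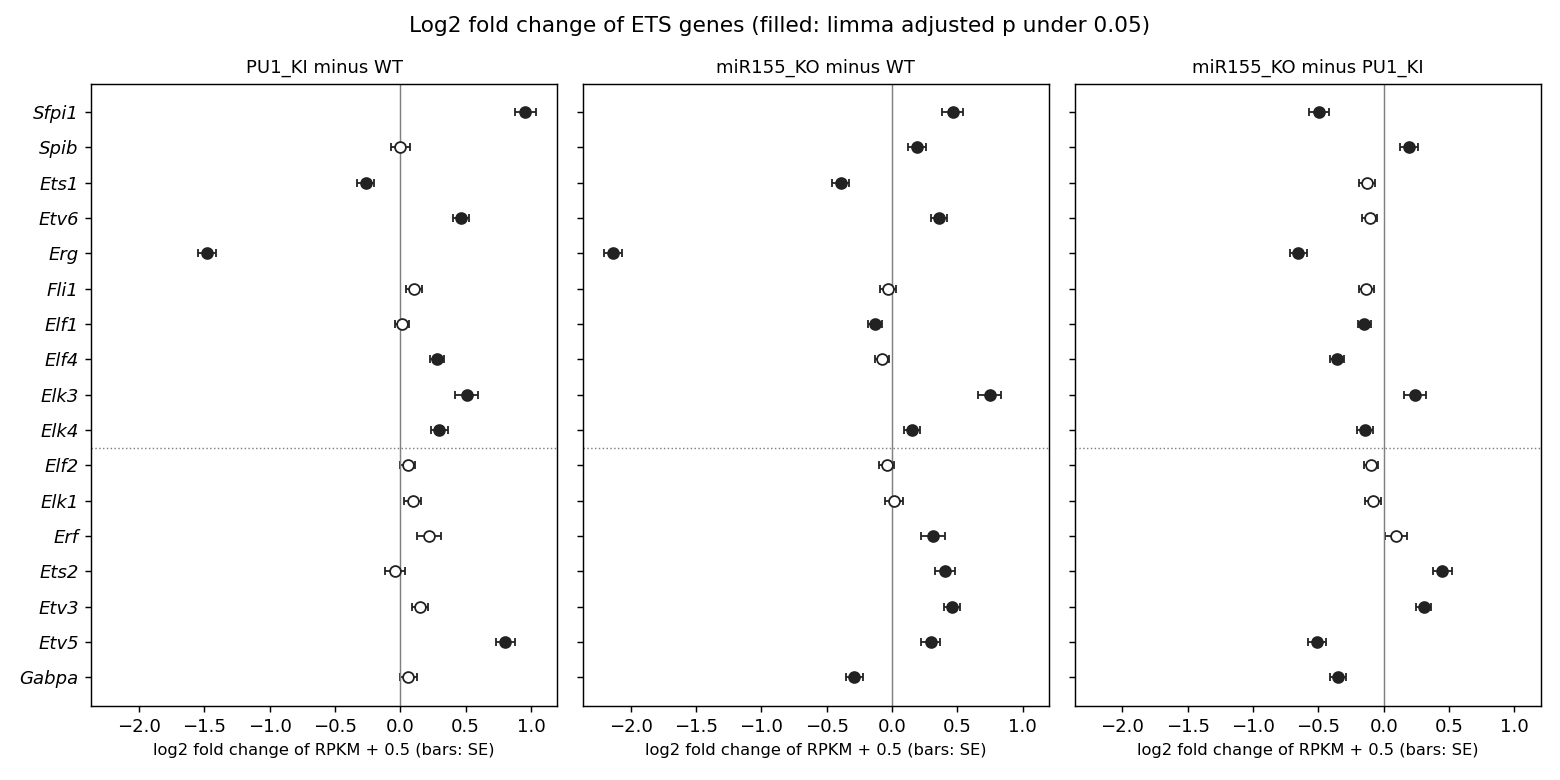
Log2 fold change of log2(RPKM + 0.5) with SE for the 10 ETS genes (above the dotted line) and the 7 other tested ETS genes (below it), in 3 panels for PU1_KI minus WT, miR155_KO minus WT and miR155_KO minus PU1_KI; filled points have a limma adjusted p under 0.05. Erg lies far to the left in each panel (-1.48, -2.14 and -0.65), and Sfpi1 lies to the right in the first 2 and to the left in the last (0.96, 0.47 and -0.49).

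The order of the genes by mean RPKM also differed. In WT it ran from Spib (70.6 ± 7.25, SD) through Elf1 (38.3 ± 2.00), Fli1 (27.2 ± 0.90), Ets1 (20.9 ± 0.78), Elk4 (18.4 ± 1.41), Sfpi1 (11.99 ± 1.54), Elf4 (10.999 ± 0.32), Etv6 (9.37 ± 0.52) and Elk3 (4.29 ± 0.64) to Erg (2.01 ± 0.11). Libraries of neighbours overlapped for Ets1 with Elk4 and for Sfpi1 with Elf4. In PU1_KI Sfpi1 stood in place 4 at 23.7 ± 2.04, overlapping Elk4 at 22.7 ± 1.23, and above Ets1 at 17.3 ± 1.55, and Elf4 (13.5 ± 0.82) overlapped Etv6 (13.2 ± 1.19). In miR155_KO Sfpi1 stood in place 5 at 16.7 ± 1.11 and overlapped Ets1 at 15.8 ± 1.15. Spib, Elf1 and Fli1 kept the top places and Elk3 and Erg the last in each genotype.

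Some of the rest of the ETS family was as abundant as several of the 10 genes, such as Gabpa (11.4 RPKM), Elf2 (9.41) and Etv3 (7.41) in WT. Of 16 other ETS genes in the table, 7 reached the filter and 9 stayed at or below 0.543 RPKM in every library, among them Spic, the third relative of PU.1, at up to 0.233. In PU1_KI 1 of the 7 was called higher, Etv5 (2.23 ± 0.16 RPKM in WT, 4.27 ± 0.31 in PU1_KI), by 0.80 (adjusted p = 1.37e-07), and 0 were lower. That is 14.3% of the 7, against 27.7% of all tested genes. In miR155_KO 4 rose and 1 fell (71.4% called, against 62.5% of all tested genes). Etv3, a repressor, rose from 7.41 ± 0.49 to 10.4 ± 0.35 RPKM (0.46), and Ets2 rose by 0.41, Erf, also a repressor, by 0.32 and Etv5 by 0.30. Gabpa, the DNA-binding part of GA-binding protein, fell from 11.4 ± 0.77 to 9.29 ± 0.73 RPKM (-0.29). Gabpa lies on chromosome 16 (84835170 to 84864024 in NCBIM37), as does the gene of miR-155 (84714140 to 84714204 in GRCm38). The builds differ, so no distance is given, and whether this position bears on the fall was not tested.

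Between the mutants Ets2 (0.45) and Etv3 (0.31) were higher and Etv5 (-0.51) and Gabpa (-0.35) lower in miR155_KO. That is 57.1% of the 7, against 64.3% of all tested genes. Elf2 (9.41 ± 0.43 RPKM in WT) and Elk1 (4.05 ± 0.18) passed in 0 comparisons. The Etv3 change in PU1_KI of 0.15 (adjusted p = 0.0614) passed without WT_4 (0.18, adjusted p = 0.0489) or PU1_KI_1 (0.18, adjusted p = 0.0256), and that of Erf, 0.22 (adjusted p = 0.0753), passed without WT_3 (0.27, adjusted p = 0.0413). Without PU1_KI_1 Elf2 was called lower in miR155_KO than in PU1_KI (-0.13, adjusted p = 0.0259). In their 3' UTRs Etv3 holds a full seed match, Etv5 the 7-base match AGCATTA, and Elf2 and Erf each GCATTAA. Any of the 3 was held by 13.6% of tested genes with a 3' UTR. Whether these matches bear on the changes was not tested.

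Partners of ETS factors, 21 of 25 listed genes tested, moved in both directions, at shares near those of all tested genes: 33.3% were called in PU1_KI (27.7% of all genes), 57.1% in miR155_KO (62.5%) and 57.1% between the mutants (64.3%). In PU1_KI 6 rose and 1 fell as deposited, and 5 and 4 did with median-of-ratios scaling. Lmo2, an adaptor of transcription complexes, rose from 69.3 ± 3.74 to 114 ± 9.66 RPKM (0.71 ± 0.07), Ebf1, a B lineage factor, by 0.39 and Irf4, the IRF partner that promotes plasma cell formation, by 0.38. Bcl6, a transcriptional repressor active in germinal centre B cells, fell by 0.31. Pax5, which maintains B cell identity and contacts Ets1 on DNA, rose by 0.28, and Runx1, a common neighbour of ETS factors, by 0.18. The change in Irf8, the other IRF partner of PU.1, was -0.14 (adjusted p = 0.23), and with median-of-ratios scaling -0.23 (adjusted p = 0.0204). The Runx1 call was lost without WT_1 (0.17, adjusted p = 0.0719), WT_2 (0.17, adjusted p = 0.0697), PU1_KI_3 (0.16, adjusted p = 0.0728) or PU1_KI_4 (0.15, adjusted p = 0.0702), and was 0.10 with median-of-ratios scaling (adjusted p = 0.0761).

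In miR155_KO 6 partners rose and 6 fell, or 5 and 6 without Cebpb, which stayed below 1 RPKM in each WT library and passed the filter through other libraries. Setting such genes aside, here and in the lists that follow, was chosen after seeing the data. Irf4 rose by 0.66 from 37.9 ± 1.98 to 60.1 ± 3.45 RPKM, while Bcl6 fell by 0.77, Srf by 0.82, Irf8 by 0.56 and Gabpb2, 1 of the partner subunits of Gabpa, by 0.38. Pax5 did not pass (35.8 RPKM in both, 0.00 ± 0.06, adjusted p = 0.96), although quantile normalization called it higher (0.13, adjusted p = 0.0143). Its sign turned without WT_1 (-0.04) or miR155_KO_5 (-0.00052). The Runx1 rise of 0.14 (adjusted p = 0.036) was lost without WT_1, WT_2, WT_3 or miR155_KO_3, miR155_KO_4 or miR155_KO_5 (0.13 to 0.15, adjusted p 0.0548 to 0.0841).

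Between the mutants 3 partners were higher and 9 lower in miR155_KO, and 5 and 7 with median-of-ratios scaling. The lower ones included Srf (-0.84), Bcl6 (-0.47), Irf8 (-0.42), Hhex, a homeobox factor of blood cells (-0.35), Gabpb2 (-0.32) and Pax5 (-0.28), and Irf4 was higher (0.28). The Pax5 difference was -0.08 with quantile normalization (adjusted p = 0.116). The Runx1 difference was -0.03 (adjusted p = 0.592), and 0.09 with median-of-ratios scaling.

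Genes known to be regulated by PU.1 or Spi-B in B cells, 20 of 23 listed tested with Sfpi1 among them, included both rises and falls. The called shares, 35.0% in PU1_KI, 60.0% in miR155_KO and 65.0% between the mutants, were near the 27.7%, 62.5% and 64.3% of all tested genes. Sfpi1 itself is counted among the called genes in each comparison. In PU1_KI 6 rose, Sfpi1 among them, and 1 fell, and 6 and 2 did with quantile normalization. Fcgr2b, the inhibitory Fc receptor, rose from 20.6 ± 1.70 to 32.05 ± 2.54 RPKM (0.63 ± 0.08), and Ms4a1, which encodes CD20, fell by 0.28. In miR155_KO 4 rose and 8 fell as deposited, and 7 and 8 did with quantile normalization. The falls with the smallest adjusted p were those of Blk, a kinase of the B cell receptor (18.4 ± 1.65 to 9.41 ± 0.89 RPKM, -0.93), Ms4a1 (-0.76), the receptor chain Cd79a (-0.50) and the inhibitory receptor Cd22 (-0.37). Between the mutants 1 was higher and 12 lower in miR155_KO, and 3 and 10 with median-of-ratios scaling or 6 and 9 with quantile normalization, with Blk (-1.03), Fcgr2b (-0.99), Cd79a (-0.55) and Ms4a1 (-0.48) having the smallest adjusted p.

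Of 22 myeloid genes regulated by PU.1, 13 were tested. In PU1_KI 11 rose and 0 fell as deposited, 11 and 1 did with median-of-ratios scaling and 10 and 1 with quantile normalization, the fall being Ncf4. Csf3r, Tyrobp and Fcer1g were below 1 RPKM in each WT library and passed the filter through mutant libraries, so their rise was favoured by it. Without these 3, 8 of 10 rose and 0 fell, with a median of 0.37 against 0.08 for all tested genes, where 27.7% were called. The list was chosen with earlier results of these data known, so the contrast is a description and not a test. Csf2rb, the shared chain of the GM-CSF, IL-3 and IL-5 receptors, rose from 3.14 ± 0.21 to 5.43 ± 0.43 RPKM (0.70 ± 0.07), Ncf1, a subunit of the phagocyte oxidase, from 106 ± 6.67 to 161 ± 13.9 (0.59) and Cd68, a lysosomal glycoprotein, from 6.80 ± 0.48 to 10.9 ± 0.58 (0.64). In miR155_KO 8 rose and 5 fell, 100% of those tested against 62.5% of all tested genes, and 8 and 3 did with quantile normalization. Without the same 3 genes 5 rose and 5 fell. Csf3r, the G-CSF receptor, was at 0.777 ± 0.081 RPKM in WT libraries, 1.68 ± 0.23 in PU1_KI and 9.81 ± 0.50 in miR155_KO, a change of 3.01 in miR155_KO. Tyrobp, a signalling adaptor, rose by 2.20 and Csf2rb by 1.28, while Ncf4, another oxidase subunit, fell by 0.83.

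Between the mutants 3 myeloid genes were higher and 6 lower in miR155_KO, and 5 and 5 with median-of-ratios scaling, with Cd68 (-1.03) and Mpeg1, a perforin-like protein of macrophages (-0.99), lower and Csf3r (2.25) and Tyrobp (1.48) higher. As deposited 69.2% of the tested myeloid genes were called there, near the 64.3% of all tested genes. Macrophage and monocyte markers summed to 0.430 to 0.678 RPKM in WT libraries, 0.385 to 0.650 in PU1_KI and 1.14 to 1.40 in miR155_KO, Emr1 being the highest with a mean of 0.411, and 5 of the 9 in the table were under 0.1 RPKM everywhere. Of the listed markers, 5 for macrophages and monocytes and 2 for neutrophils are also on the myeloid list, and none of those 7 was tested. The 8 neutrophil markers summed to at most 0.0499 RPKM in any library. The part of such cells in the myeloid values was not tested.

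Of the targets of Srf and the ternary complex factors, 3 of 14 tested rose and 11 fell in miR155_KO. Nr4a1, 1 of the rises, was below 1 RPKM in each WT library and passed the filter through mutant libraries. Without it 2 rose and 11 fell, with a median of -0.73 against -0.05 for all tested genes, of which 62.5% were called. This list, too, was chosen with earlier results known, so the contrast is a description and not a test. Egr1, an immediate early factor, fell from 43.0 ± 2.35 to 19.0 ± 2.09 RPKM (-1.16 ± 0.09), Egr2 by 0.73 and the phosphatase gene Dusp1 by 1.11. Srf, which is itself on this list and among the 11 falls, fell by 0.82. Elk3, by contrast, rose there. In PU1_KI 2 rose (1 without Nr4a1) and 3 fell, and 1 and 5 did with median-of-ratios scaling. As deposited 35.7% were called, against 27.7% of all tested genes. Ier3, a stress-response gene, rose by 0.85, and Dusp1 fell by 0.46.

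The AP-1 genes Fosb (-0.89, adjusted p = 0.0257) and Fos (-0.68, adjusted p = 0.0386) were called lower in PU1_KI, but their libraries spread widely. PU1_KI_1 was the highest PU1_KI library for both (Fosb 7.09 RPKM against 2.38 to 2.74, Fos 46.3 against 18.9 to 24.9). Both calls held without it. Leaving out 1 library gave -1.16 to -0.70 for Fosb and -0.89 to -0.51 for Fos. Both calls were lost without WT_2 (Fosb -0.73, adjusted p = 0.0953, and Fos -0.54, adjusted p = 0.137), WT_3 (Fosb -0.70, adjusted p = 0.0854, and Fos -0.51, adjusted p = 0.125) or any of PU1_KI_2 to PU1_KI_5 (Fosb -0.85 to -0.81, Fos -0.67 to -0.58), and both were lost with no filter on low values (adjusted p = 0.0941 and 0.122). Between the mutants 1 target was higher and 11 were lower in miR155_KO (85.7% called, against 64.3% of all tested genes). Those with the smallest adjusted p were Srf (-0.84), Egr1 (-0.93), Egr2 (-0.69) and Mcl1, a survival gene (-0.33), while Fosb (-1.46) and Fos (-1.27) had larger differences.

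**Figure D4:**
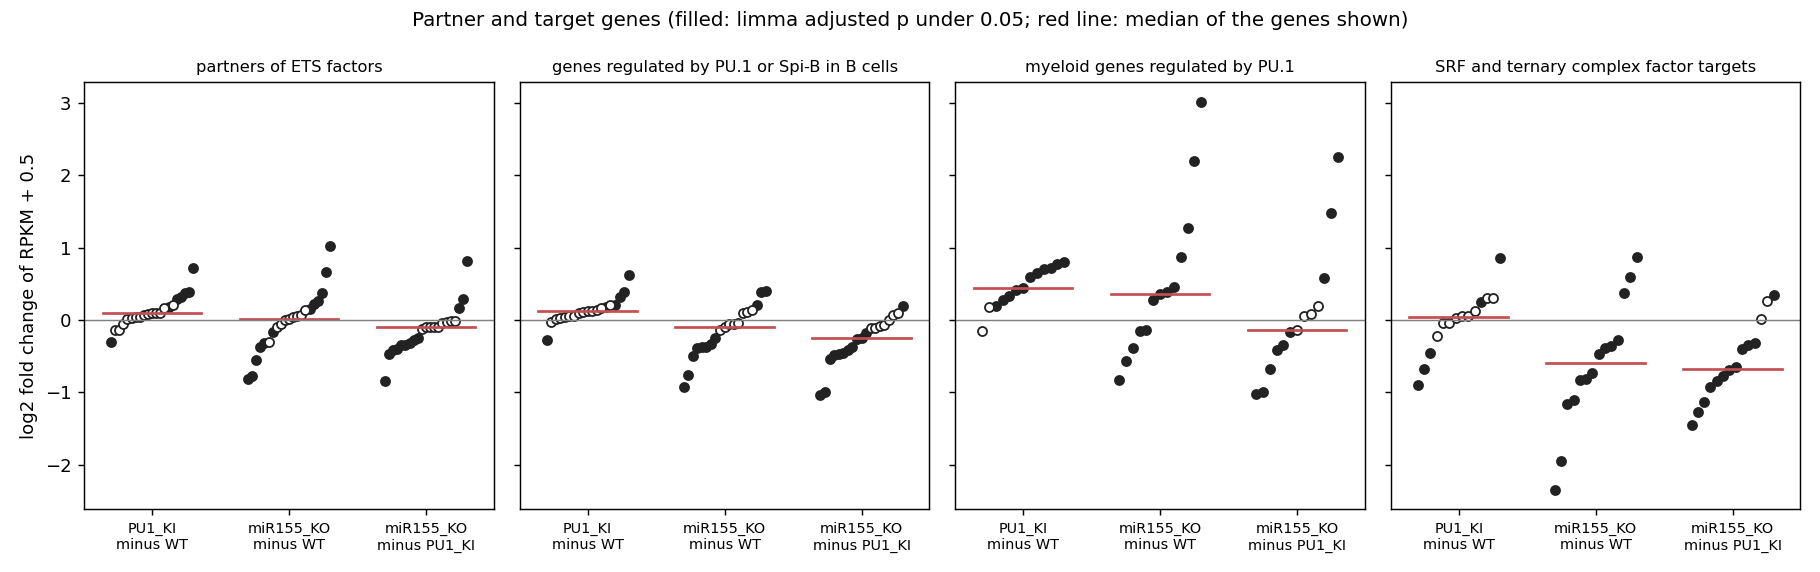
Log2 fold change of log2(RPKM + 0.5) for each tested partner or target gene in the 3 comparisons, 1 panel per list; filled points have a limma adjusted p under 0.05 and the red line is the median of the genes shown, with Sfpi1 left out of the PU.1 and Spi-B targets. The myeloid genes of PU1_KI lie almost wholly above 0 (11 of 13 called higher as deposited, 3 of them under 1 RPKM in every WT library), and the Srf targets of miR155_KO mostly below (11 of 14 called lower, Srf itself among them).

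The tested genes whose pattern over the 14 libraries was most like that of a member were found by the mean absolute difference in log2(RPKM + 0.5), each gene centred on its own WT mean. For Sfpi1 these were Nfam1 (0.08), an ITAM-bearing receptor of immune cells, Ms4a4c (0.09), Ppard (0.10), a nuclear receptor, Slc12a9 (0.11) and the interferon-induced Ifit1 (0.12). These genes were chosen for that likeness, so their levels were bound to share the order of Sfpi1. Ms4a4c, for example, was at 5.89 ± 0.84 RPKM in WT libraries, 11.8 ± 1.77 in PU1_KI and 7.91 ± 0.33 in miR155_KO. For Erg the distances were larger: Hemgn (0.29), a nuclear protein of blood cells, Lrrc32 (0.33), which anchors latent TGF-beta, Egfl7 (0.37), Il2rb (0.40), a chain of the IL-2 and IL-15 receptors, and A630091E08Rik (0.41). Hemgn was at 4.02 ± 0.26 RPKM in WT libraries, 1.94 ± 0.14 in PU1_KI and 0.656 ± 0.113 in miR155_KO, and Lrrc32 at 5.16 ± 0.34, 2.66 ± 0.28 and 0.605 ± 0.093. A630091E08Rik, at means of 1.39, 0.620 and 0.0299 RPKM, passed the filter through WT libraries alone, like Erg.

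**Figure D5:**
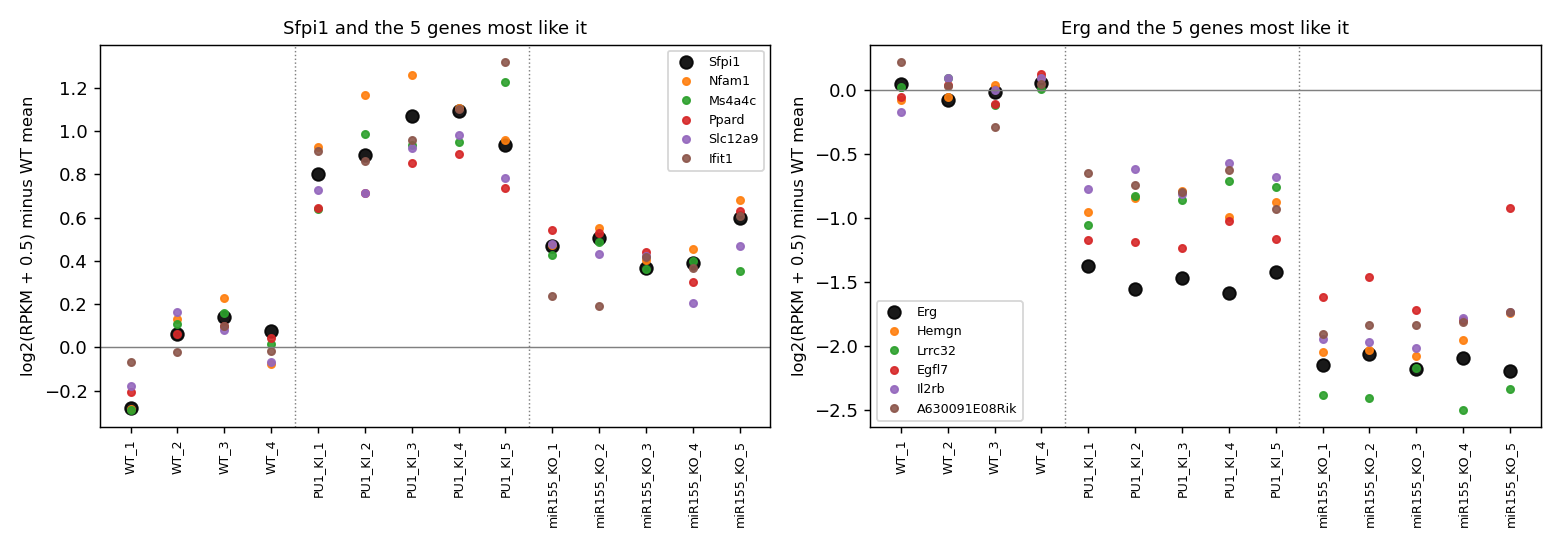
Log2(RPKM + 0.5) minus the gene's WT mean in each of the 14 libraries, for Sfpi1 and its 5 most alike genes and for Erg and its 5. The Sfpi1 group rises most in PU1_KI and the Erg group falls in PU1_KI and further in miR155_KO; these genes were chosen for that likeness.

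Promoters were searched for GAGGAA, a core bound by PU.1, on both strands in the 300 bases around each start in the RefSeq table (GRCm38.p6). It was present in 28.3% of 32851 promoters. Of the 10 genes 7 had an entry, with 13 promoters, and 3 promoters held it, those of Elf4 and 1 of Elk4. Entries were not found for Spi1, Ets1 and Fli1.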

How the data were processed

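RNA-seq of 14 libraries was analysed from 1 table of RPKM values, as the authors deposited it. Per the submitters' processing notes, Trim Galore, TopHat and the build NCBIM37 were used. The counter, annotation and strand setting are named by none of the sources used here. All columns were matched to libraries by title. The 10 genes and all gene lists were chosen with earlier results of these data known.

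The 9627 genes reaching 1 RPKM in 4 or more libraries were tested with limma 3.58.1 (R 4.3.3) on log2(RPKM + 0.5), 1 mean per genotype over all libraries, with an intensity trend, two-sided, adjusted by Benjamini-Hochberg. No block was used. Named list genes are the up to 4 with the smallest adjusted p per list and comparison, plus Irf4, Irf8, Pax5 and Runx1; every tested ETS gene is named. The script was tested on simulated data.

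Depth was recovered as the most common product of RPKM and gene span among 400 low values of genes under 2500 bp, of which 73.5% to 77.2% came out whole within 0.01 reads. For each of the 10 genes all 14 values were whole reads at 1 length. No count model was run. Alternatives were pseudocounts 0.1 and 1, no filter or 5 RPKM, median-of-ratios and quantile scaling, fits of 2 genotypes, the replicate block and leaving out libraries.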

Additional observations from a re-analysis of the deposited data

Results flagged for a closer look

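Dixon's test was applied to each genotype for the named genes and ratios, 180 groups in all, of which chance flags about 1 in 20. None of the 10 ETS genes or their ratios was picked out, and 4 groups of other genes were. In PU1_KI_1 Fos was at 46.3 RPKM, while the other 4 PU1_KI libraries were at 18.9 to 24.9, and Fosb was at 7.09 against 2.38 to 2.74. Ncf1 in WT_1 was at 96.3 RPKM, below the other WT libraries at 108.7 to 110.5. Slc12a9, 1 of the genes most like Sfpi1, was at 5.88 RPKM in miR155_KO_4, below the others at 6.90 to 7.19.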

How the results depend on the processing

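The counts of genes called stayed within 1.5 times under every setting run. Leaving out 1 library gave 1966 to 3128 genes for PU1_KI against WT, 5553 to 6205 for miR155_KO against WT and 5755 to 6471 between the mutants, and 7, 6 to 8 and 6 to 8 ETS genes called. Without WT_1 and miR155_KO_5 together, a setting chosen after seeing the data, these were 2230, 6241 and 6608 genes and 7, 7 and 7 ETS genes. Of 30 changes of the 10 ETS genes, 18 kept their direction and call in every setting. Signs turned for small changes. With median-of-ratios and with quantile scaling, PU1_KI against WT became -0.089 and -0.079 for Spib and -0.073 and -0.056 for Elf1, and Fli1 in miR155_KO against WT became 0.021 and 0.065. Between the mutants those 2 scalings gave 0.0086 and 0.044 for Ets1, 0.027 and 0.046 for Etv6 and 0.0028 and 0.061 for Fli1, and quantile scaling gave 0.058 for Elf1 and 0.040 for Elk4. For Elf1 in miR155_KO against WT quantile scaling gave 0.0019. In PU1_KI against WT, leaving out 1 library gave -0.067 to 0.053 for Spib and -0.00097 to 0.051 for Elf1, and leaving out the 2 libraries gave -0.067 and -0.00076. The fit of 2 genotypes lost the calls of Elf1 (adjusted p = 0.052) and Elk4 (adjusted p = 0.0567) in miR155_KO against WT. The filter of 5 RPKM left Erg untested.

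Of 75 changes of named partners, targets and other ETS genes, 58 kept direction and call. Those that turned under the 2 scalings were Elf2 in PU1_KI (-0.029 and -0.031), in miR155_KO (0.0054 and 0.0055) and between the mutants (0.034 and 0.037), Gabpa in PU1_KI (-0.025 and -0.034) and Runx1 between the mutants (0.089 and 0.036), and, under the first, Elk1 between the mutants (0.044). In miR155_KO against WT, leaving out 1 library gave -0.028 to 0.041 for Elk1 and -0.044 to 0.026 for Pax5, and leaving out the 2 gave -0.047 and -0.049. The cause was not tested.

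With the replicate block, 2908, 6326 and 6461 genes and 7, 8 and 10 ETS genes were called, adding Ets1 (adjusted p = 0.0378), Etv6 (adjusted p = 0.0454) and Fli1 (adjusted p = 0.017) as lower in miR155_KO than in PU1_KI, and Elk1 in miR155_KO against WT became -0.013. In the same fit Etv3 in PU1_KI (adjusted p = 0.0192) and Elf2 between the mutants (adjusted p = 0.0494) were called, and the calls of Fosb (adjusted p = 0.0703) and Fos (adjusted p = 0.11) in PU1_KI were lost. Over 13 same-numbered pairs the correlation of deviations ran from -0.39 to 0.47, and 7 were over 0.1. Of 14 libraries, 4 correlated best with their own number. No chance level was set for these values, so whether the numbers pair the libraries was not tested. Erg in miR155_KO rests on 7 to 18 reads per library, which limits its ratios.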
